A study of Mus musculus with 6 samples.

Results

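Messenger RNA of 10 macrophage marker genes was followed in mammary epithelial cells (MECs) from which leukocytes had been depleted. The genes were Adgre1, Csf1r, Cd68, Lyz2, C1qa, C1qb, C1qc, Mrc1, Cx3cr1 and Fcgr1, and they were taken by symbol from the 55487 genes of the count table. A count in at least 1 library was found for 28839 genes of the table and for all 10 markers. Of the 17165 genes with enough counts to be tested, 7 were markers, and Adgre1, Cx3cr1 and Fcgr1 were not among them.

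The libraries came from mammary glands of virgin female BALB/c mice at 10 weeks of age, before tumors form. The 3 wild-type (WT) mice were compared with 3 IL-21isoTg mice, which carry a transgene for a membrane-bound isoform of interleukin-21 that is directed to T cells, with 1 poly(A)-selected library per mouse. Glands were digested, and cells bound by antibodies to the leukocyte antigen CD45, the endothelial antigen CD31 or the fibroblast antigen CD140a were taken out on magnetic particles, so both genotypes went through the same depletion. The cells that remained were sequenced as a bulk, and the comparison addressed which transcripts differed between the genotypes ahead of tumor formation.

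Macrophages carry CD45 and are therefore targets of that depletion. They reside in the mammary stroma and along the ducts, where they engulf dying cells and take part in the branching and remodeling of the epithelium. Their survival depends on the receptor encoded by Csf1r. Tissue macrophages are also the main source of C1q, the recognition protein of the classical complement pathway. Several of the 10 genes are not exclusive to macrophages: Lyz2 is also made by neutrophils and some epithelia, Csf1r by monocytes, and Mrc1 by lymphatic and sinusoidal endothelium.

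The total count per mouse was 15902886 to 25719244. A count of 3, taken as the floor of detection, corresponded to 0.112 to 0.280 CPM (the count scaled by library size after TMM normalization, which corrects for differences in library composition). IL-21isoTg 3 stood apart from the other libraries: 15 salivary gland genes took 41.0% of its counts, against 4.92 to 22.9% in the other 5 mice, and its TMM factor was 0.675 against 0.936 to 1.23. Il21 had 0, 0 and 37 counts in WT and 795, 216 and 131 in IL-21isoTg, without overlap in CPM. WT 3 was also nearest to IL-21isoTg in the sum of 8 milk protein genes. The sum was 1733 CPM there, 538 and 523 CPM in WT 1 and 2, and 8818 to 20366 CPM in IL-21isoTg. Of the 8 genes, only Csn3 and Glycam1 were not highest of WT in WT 3. Csn3 was at 428 CPM in WT 2 against 396 CPM in WT 3, and Glycam1 at 91.2 CPM in WT 1 against 67.5 CPM in WT 3. The library labelled WT 3 thus stood apart from the other WT mice, and without it 0 markers were called and the log2 fold changes (IL-21isoTg over WT) of C1qa and C1qc were 1.14 and 1.56. The gene Ptprc, which encodes CD45, had 145, 45 and 209 counts in WT mice 1, 2 and 3, and 91, 157 and 98 in IL-21isoTg mice 1, 2 and 3. Transcripts of the depleted cells were thus still detected in every library.

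The 10 markers together took 629, 352 and 412 counts in WT and 499, 547 and 266 in IL-21isoTg, or 0.00167 to 0.00282% of all counts. Their summed level was 28.4, 16.9 and 18.5 CPM in WT and 20.7, 20.4 and 24.8 CPM in IL-21isoTg. The 3 IL-21isoTg values lay inside the WT range, whose upper end was set by WT 1 alone, and the log2 ratio of the genotype means was 0.05. With each mouse left out the ratio ranged from -0.09 (without WT 2) to 0.32 (without WT 1). Csf1r, Cd68 and Lyz2 supplied 83.4 to 88.2% of the marker counts in 5 mice and 66.2% in IL-21isoTg 3. In bulk libraries, fewer macrophages and less RNA per macrophage cannot be told apart.

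None of the 7 tested markers was called between the genotypes by edgeR's quasi-likelihood test at an adjusted p under 0.05, where 0% of all 17165 genes tested were called. Il21 itself was not called (log2 fold change 4.98, edgeR adjusted p = 0.757), so the absence of a call does not show equal levels. DESeq2, limma-voom and edgeR's likelihood ratio test also called 0 markers, although DESeq2 gave an adjusted p for only 4 of them. One marker, C1qc, was below 0.05 before adjustment, as were 5.82% of all genes tested. The median log2 fold change (IL-21isoTg over WT) of the 7 markers was -0.05, with 3 above 0 and 4 below, beside a median of -0.02 over all genes tested. In 2 of the 10 markers, C1qa and C1qc, all 3 IL-21isoTg mice lay above all 3 WT mice, a separation found in 5.54% of all genes tested. Both were among the 7 markers tested. No marker had all IL-21isoTg mice below WT, which 6.54% of all genes tested did. With 1 mouse left out, 17.9 to 27.6% of all genes tested had no overlap in either direction. The count over all 10 markers was 5 without IL-21isoTg 1 (17.9% of all genes tested), where Mrc1 joined as higher and Lyz2 and Fcgr1 as lower. It was 4 without IL-21isoTg 3 (22.1%), where Adgre1 and C1qb joined as lower. Fcgr1 and Adgre1 had too few counts to be among the genes tested, so these counts and shares cover unlike sets of genes. The count was 3 without WT 1 (26%) and 2 without each of the other mice.

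**Figure D1:**
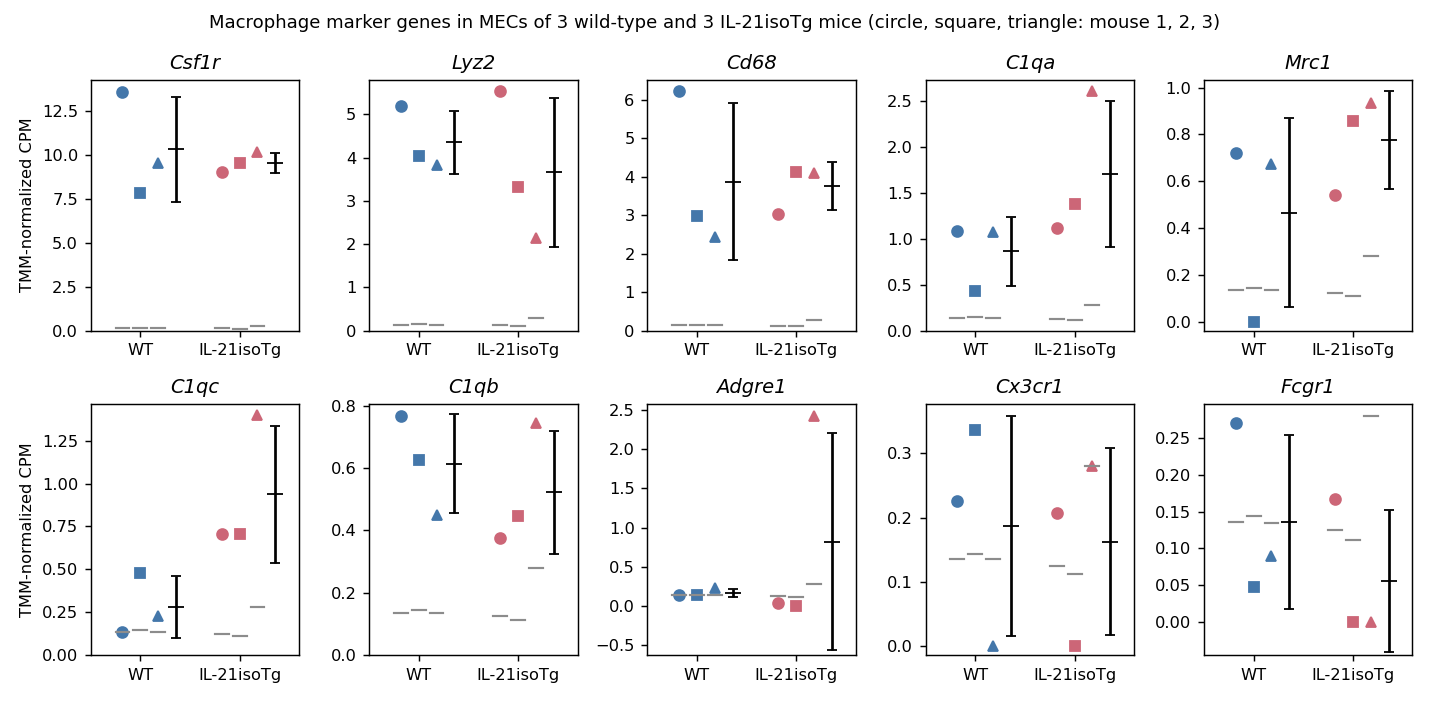
Level of each macrophage marker gene in TMM-normalized CPM (vertical axis, scaled per gene) in WT (blue) and IL-21isoTg (red) mice, with circles, squares and triangles for mice 1, 2 and 3, black bars for the mean and SD of 3 mice, and gray dashes for the level that 3 counts give in that library. C1qa and C1qc are separated by genotype, most Adgre1, Cx3cr1 and Fcgr1 values lie near the gray dashes, and a single IL-21isoTg mouse stands at 2.42 CPM of Adgre1.

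Lyz2, which encodes the lysozyme of myeloid cells, lies at chr10:117277331-117282321 on the minus strand of GRCm38, beside its near copy Lyz1 at chr10:117287797-117292868. Lyz1 is best known from the Paneth cells of the intestine. The coding sequences, each of 447 bp, were identical at 425 positions (95.1%) and differed at 22. The first 120 coding bases of each are shown because they bear on which gene a lysozyme read belongs to. They are given as in the GENCODE M21 transcripts, with capitals at the 11 positions that differ.
Lyz2: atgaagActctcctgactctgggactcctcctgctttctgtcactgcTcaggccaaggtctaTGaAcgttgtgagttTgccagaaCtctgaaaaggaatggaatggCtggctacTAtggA
Lyz1: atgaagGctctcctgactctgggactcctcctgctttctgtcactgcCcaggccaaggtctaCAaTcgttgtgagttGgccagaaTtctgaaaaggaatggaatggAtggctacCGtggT
Over the length of a read, 150 bases, none of the 1167 stretches of the Lyz2 transcript was found in the Lyz1 transcript. Of stretches of 31 bases, 422 of 1286 (32.8%) were in both, so an untrimmed read could be told apart by sequence and a short remnant might not.

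Lyz2 had 115, 84 and 85 counts in WT, or 5.19, 4.04 and 3.82 CPM. In IL-21isoTg it had 133, 89 and 23 counts, or 5.53, 3.31 and 2.15 CPM. IL-21isoTg mice were both the highest and the lowest of the 6, so the genotypes overlapped. The means were 4.35 ± 0.733 CPM (SD, n = 3) in WT and 3.66 ± 1.72 CPM (SD, n = 3) in IL-21isoTg, with a log2 fold change of -0.23 (SE 0.39, 95% interval -1.14 to 0.67, edgeR adjusted p = 0.928). Without IL-21isoTg 3, the library with the most salivary RNA, the fold change was 0.03. Lyz1 had 6, 18 and 11 counts in WT and 1, 0 and 0 in IL-21isoTg. All IL-21isoTg mice were thus lower in Lyz1, at or under the floor, but the gene had too few counts to pass the filter and the exact permutation p of 0.1 is the smallest that 3 mice against 3 can give. Where all genes with a count were fitted, the edgeR adjusted p for Lyz1 was 0.758.

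Cd68 encodes a lysosomal membrane glycoprotein of macrophages and other phagocytes and lies at chr11:69664213-69666153. Its counts were 138, 62 and 54 in WT, or 6.22, 2.98 and 2.43 CPM. In IL-21isoTg they were 73, 111 and 44, or 3.03, 4.13 and 4.10 CPM. WT 1 was higher than every other mouse. Among the remaining 5, each IL-21isoTg mouse lay above each WT mouse, the closest at 3.03 against 2.98 CPM. With WT 1 left out, 26% of all genes tested had no overlap in either direction. The means were 3.88 ± 2.05 CPM in WT and 3.76 ± 0.625 CPM in IL-21isoTg (SD, n = 3 each), and the log2 fold change was -0.05 (SE 0.42, 95% interval -1.02 to 0.92, edgeR adjusted p = 0.987). Without WT 1 it was 0.48.

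Csf1r encodes the receptor for colony-stimulating factor 1 and interleukin-34 and was the most abundant marker by counts. It lies on the plus strand at chr18:61100598-61132149. WT mice had 302, 163 and 212 counts, or 13.6, 7.83 and 9.54 CPM. IL-21isoTg mice had 217, 256 and 109 counts, or 9.02, 9.53 and 10.2 CPM. The IL-21isoTg mice lay close together within the WT range. The means were 10.3 ± 2.97 CPM and 9.57 ± 0.573 CPM (SD, n = 3 each), and the log2 fold change was -0.11 (SE 0.26, 95% interval -0.70 to 0.48, edgeR adjusted p = 0.949). Without WT 1, which was highest for Csf1r as for Cd68, the fold change was 0.15.

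The end of Csf1r overlaps a gene on the opposite strand, Hmgxb3, which encodes an HMG-box protein and was looked at after its values were seen. The shared bases made up 873 of 5774 exon bases of Csf1r (15.1%). Hmgxb3 was the more abundant of the pair, with 1168, 814 and 908 counts in WT and 831, 1217 and 431 in IL-21isoTg. Csf1r counts were 20.02 to 26.1% of Hmgxb3 counts in the 6 mice. Against Cd68 the same counts were 219 to 393%, against Lyz2 163 to 474% and against Ptprc 101 to 362%. The ratio to Hmgxb3 was narrower than to these macrophage or leukocyte genes, which had fewer counts than Hmgxb3. How many unrelated genes keep as narrow a ratio to Csf1r was not examined. The library kit keeps strand, but whether the counting used strand is not given in the sources used here. Without it, reads from the shared bases cannot be assigned to Csf1r or Hmgxb3, and their part in the Csf1r level was not tested.

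**Figure D2:**
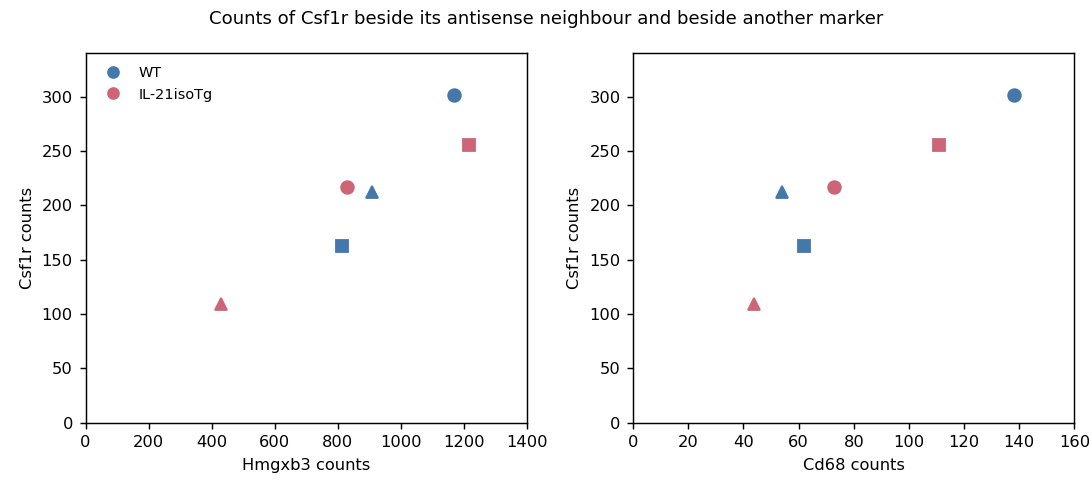
Counts of Csf1r (vertical axes) in each mouse against counts of Hmgxb3 (left) and Cd68 (right), with circles, squares and triangles for mice 1, 2 and 3 of WT (blue) and IL-21isoTg (red). Csf1r was 20.02 to 26.1% of Hmgxb3 and 219 to 393% of Cd68 in the 6 mice, which share differences in depth on both axes.

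C1qa, C1qb and C1qc encode the A, B and C chains of C1q and lie next to each other on the minus strand of chromosome 4, at chr4:136895917-136898803, chr4:136880129-136886187 and chr4:136889804-136893065. C1qa had 24, 9 and 24 counts in WT, or 1.08, 0.432 and 1.08 CPM. In IL-21isoTg it had 27, 37 and 28 counts, or 1.12, 1.38 and 2.61 CPM. The lowest IL-21isoTg mouse lay just above the highest WT mice, and IL-21isoTg 3 was higher than the rest. The means were 0.865 ± 0.375 CPM and 1.70 ± 0.796 CPM (SD, n = 3 each), and the log2 fold change was 0.94 (SE 0.56, 95% interval -0.36 to 2.25, edgeR adjusted p = 0.810). Without IL-21isoTg 3 it was 0.53.

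C1qc had the largest fold change of the 7 tested markers. It had 3, 10 and 5 counts in WT, or 0.135, 0.480 and 0.225 CPM. In IL-21isoTg it had 17, 19 and 15 counts, or 0.707, 0.707 and 1.40 CPM. Each IL-21isoTg mouse was above each WT mouse in counts and in CPM, with WT 1 at the floor. The means were 0.280 ± 0.179 CPM and 0.938 ± 0.399 CPM (SD, n = 3 each), with a log2 fold change of 1.69 (SE 0.68, 95% interval 0.11 to 3.27). The change did not pass edgeR's test (adjusted p = 0.809), the gene stood at rank 772 of 17165 by p, and the exact permutation p was 0.1 for C1qc as for C1qa. Its fold change stayed between 1.33 (without IL-21isoTg 3) and 2.31 (without WT 2) under the alternatives that tested it, with adjusted p from 0.549 to 0.994 where one was given.

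C1qb did not share this pattern. Its counts were 17, 13 and 10 in WT, or 0.767, 0.625 and 0.450 CPM, and 9, 12 and 8 in IL-21isoTg, or 0.374, 0.447 and 0.746 CPM. The genotypes overlapped, and the log2 fold change was -0.28 (SE 0.58, 95% interval -1.61 to 1.05, edgeR adjusted p = 0.942). The differences between the fold changes of the 3 chains were not tested.

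The chains assemble in equal numbers in the C1q protein, but their counts were unequal and differed between mice. Summed C1q counts were 44, 32 and 39 in WT and 53, 68 and 51 in IL-21isoTg. C1qb made up 38.6, 40.6 and 25.6% of these in WT and 17.0, 17.6 and 15.7% in IL-21isoTg. C1qc made up 6.82, 31.3 and 12.8% in WT and 32.1, 27.9 and 29.4% in IL-21isoTg, and C1qa was 50.9 to 61.5% in all mice but WT 2, where it was 28.1%. The share of C1qb was thus lower in each IL-21isoTg mouse than in each WT mouse, which is given as a description since it was noticed in these counts. No stretch of 31 bases of the C1qa transcript was shared with C1qb or C1qc, or of C1qb with C1qc. Summed C1q levels were 1.98, 1.54 and 1.75 CPM in WT and 2.20, 2.53 and 4.76 CPM in IL-21isoTg. By the root-mean-square difference of centered log2(CPM + 0.5) over the 6 mice, genes close to this pattern included Tmem144 (0.0602), Furin (0.0857), Cacna1a (0.0911) and Trpv6 (0.0948), none of which is a macrophage marker on the lists used here.

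**Figure D3:**
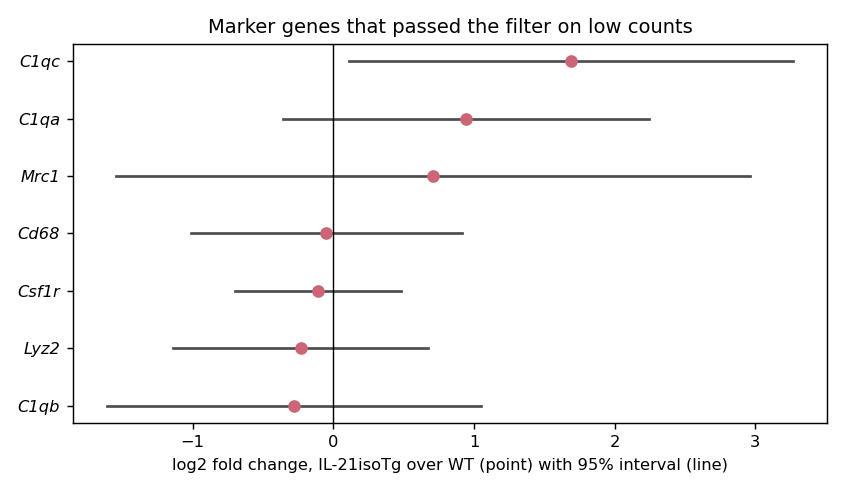
Log2 fold change (IL-21isoTg over WT, horizontal axis) of the 7 marker genes that passed the filter on low counts, as points with 95% intervals as lines from the edgeR fit of 3 mice per genotype. The interval of C1qc, 0.11 to 3.27, is the only one of the 7 that does not reach 0, and the edgeR adjusted p of C1qc was 0.809.

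The remaining markers are receptors on the macrophage surface. Mrc1, at chr2:14229392-14332057, encodes the mannose receptor CD206, which is used as a marker of M2 macrophages. It had 16, 0 and 15 counts in WT, or 0.722, 0 and 0.675 CPM, and 13, 23 and 10 in IL-21isoTg, or 0.540, 0.856 and 0.933 CPM. WT 2 was at 0 and the other 5 mice overlapped by genotype. The log2 fold change was 0.71 (SE 0.97, 95% interval -1.54 to 2.96, edgeR adjusted p = 0.911), and without WT 2 it was 0.14.

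Adgre1, at chr17:57358691-57483527, encodes F4/80, the antigen by which mouse macrophages are usually sorted. It had 3, 3 and 5 counts in WT and 1, 0 and 26 in IL-21isoTg. Only WT 3 and IL-21isoTg 3 were above the floor of 3 counts. The 26 counts of IL-21isoTg 3 carry an exact 95% Poisson interval of 17.0 to 38.1, which covers counting error only, and correspond to 2.42 CPM against at most 0.225 CPM in the other 5 mice. Of 45 other genes with a count on the marker, macrophage, Fc receptor and leukocyte lists, IL-21isoTg 3 was above all other mice in 9 and below or level with the lowest in 14. The first included C1qa, C1qc, Mrc1 and Lcp1, and the second Lyz2, Fcgr1, Siglec1, Marco and Tyrobp. Adgre1 did not pass the filter, the exact permutation p was 1, and a fit of all genes with a count gave an edgeR adjusted p of 0.799.

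Cx3cr1, at chr9:119901616-120069879, encodes the fractalkine receptor of monocytes and many tissue macrophages, among them those of the mammary ducts. It had 5, 7 and 0 counts in WT and 5, 0 and 3 in IL-21isoTg. Fcgr1, at chr3:96282909-96293969, encodes the high-affinity IgG receptor CD64, and had 6, 1 and 2 counts in WT and 4, 0 and 0 in IL-21isoTg. The genotypes overlapped for each gene, with exact permutation p of 0.8 for Cx3cr1 and 0.5 for Fcgr1. At this depth no difference in Adgre1, Cx3cr1 or Fcgr1 was detectable.

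Levels were compared between genes per kilobase of the transcript with the longest coding sequence. Averaged over the 6 mice, Cd68 was highest at 3.79 CPM per kb, followed by Lyz2 at 3.04, Csf1r at 2.12, C1qa at 1.23, C1qb at 0.522 and C1qc at 0.506. Adgre1 at 0.153, Mrc1 at 0.116, Cx3cr1 at 0.0389 and Fcgr1 at 0.0370 CPM per kb were lowest. Neighbors in this order had overlapping ranges over the mice in each case. The Adgre1 mean rested on IL-21isoTg 3, with 0.749 CPM per kb against at most 0.0695 in the other 5 mice, and without that library it was 0.0337 CPM per kb, the lowest of the 10. Csf1r was 57.2-fold above Fcgr1 on this scale, and 13.8-fold above Adgre1 with IL-21isoTg 3 and 62.5-fold without it.

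Ptprc stood at 1.21 CPM per kb. Cd68, Lyz2 and Csf1r were 3.13-fold, 2.51-fold and 1.75-fold above it per kb, whereas Adgre1 was at 0.126 of the Ptprc level, or 0.031 without IL-21isoTg 3. The endothelial depletion target Pecam1 (CD31) was at 15.7 and the fibroblast target Pdgfra (CD140a) at 6.32 CPM per kb, 13.0-fold and 5.22-fold above Ptprc. The epithelial gene Epcam, at 436 CPM per kb, was 360.1-fold above Ptprc and 206.1-fold above Csf1r. Epithelial genes were thus well above the depletion targets and the macrophage markers, but genes of other sources were not low in these MEC libraries. The fibroblast gene Dcn was at 384 CPM per kb, 0.880 of the Epcam level, and the salivary gene Bpifa2 was 314-fold above Epcam (199.6-fold without IL-21isoTg 3).

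**Figure D4:**
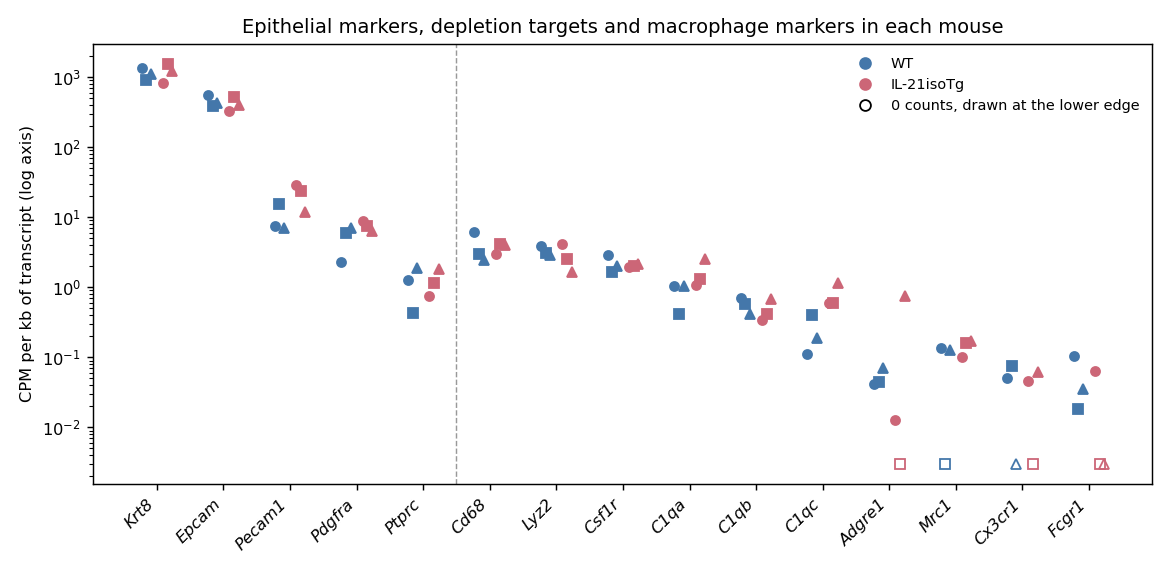
CPM per kb of transcript (vertical log axis) in each WT (blue) and IL-21isoTg (red) mouse for epithelial genes and the targets of the depletion (left of the dashed line) and the 10 macrophage markers (right), with circles, squares and triangles for mice 1, 2 and 3 and open symbols for 0 counts. Epcam averages 436, Ptprc 1.21, Csf1r 2.12 and Fcgr1 0.0370 CPM per kb.

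The ligand genes Csf1 and Cx3cl1 were far more abundant than the genes of their receptors. Csf1 encodes a ligand of the Csf1r product and Cx3cl1 the ligand of the Cx3cr1 product. Csf1 was at 45.6 and Cx3cl1 at 38.2 CPM per kb. Csf1 varied widely within genotypes, with 6746, 1804 and 2900 counts in WT and 2767, 4847 and 3489 in IL-21isoTg, and Cx3cl1 had 137 ± 6.72 CPM in WT and 116 ± 26.3 CPM in IL-21isoTg (SD, n = 3 each). Il34, the other ligand gene of Csf1r and named for that role, was at 7.99 CPM per kb, against 2.12 for Csf1r. Of 8 ligand and macrophage transcription factor genes, 7 were tested and 0 were called, with 4 fold changes above 0 and 3 below. The transcription factor gene Id3 was at 44.8 ± 11.3 CPM in WT and 46.0 ± 10.8 CPM in IL-21isoTg (SD, n = 3 each), and Spi1, the gene of the macrophage lineage factor PU.1, had only 2 to 18 counts per mouse.

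C1q acts in a complex with the proteases C1r and C1s. C1ra and C1s1, which encode them, were 11.5-fold and 20.7-fold above C1qa per kb. C1s1 was at 61.9 ± 14.8 CPM in WT and 88.7 ± 28.1 CPM in IL-21isoTg (SD, n = 3 each), and the genotypes overlapped. All 6 genes of the proteases, the inhibitor Serping1 and the substrates C2, C4b and C3 were tested and 0 were called. Of their fold changes 5 were above 0 and 1 below, beside 8216 above 0 among all 17165 genes tested. C3 was the most abundant, at 616 ± 169 and 565 ± 204 CPM. Of 5 Fc receptor and adaptor genes that pair with or resemble Fcgr1, only Fcgr2b passed the filter, and Fcer1g, the signaling chain of the Fcgr1 product, had 1 to 3 counts per mouse.

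Among 24 other macrophage and monocyte genes, 14 were tested and 0 were called, with 11 fold changes above 0 and 3 below and a median of 0.54. Over all 17165 genes tested, 8216 fold changes were above 0 and the median was -0.02. The mean level was under 1 CPM for 14 of the 24, Itgam (CD11b) had at most 3 counts per mouse, and Vsig4 was at 0 in all 6. The 4 most abundant were Cd14, Mertk, Gpnmb and Stab1. Cd14, the lipopolysaccharide co-receptor, had 3125, 4443 and 4052 counts in WT and 7361, 9389 and 1340 in IL-21isoTg. At 133.8 CPM per kb it was 63.2-fold above Csf1r, while the leukocyte gene Ptprc was at 1.21 CPM per kb. Which cells supplied Cd14 and the other genes of this list was not tested, so their fold changes are not a measure of macrophages alone. Mertk, a receptor for the uptake of dying cells, was the only gene of the list higher in each IL-21isoTg mouse than in each WT mouse. Of all genes tested, 5.54% had this separation. Mertk was at 12.9 ± 2.36 CPM against 8.86 ± 1.85 CPM in WT (SD, n = 3 each), with a log2 fold change of 0.54 (SE 0.25, edgeR adjusted p = 0.809). Gpnmb was at 8.22 ± 2.58 and 8.71 ± 1.18 CPM, and Stab1, a scavenger receptor also of sinusoidal endothelium, at 5.11 ± 1.54 and 9.15 ± 3.79 CPM.

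Genes of other cell types were read in the same libraries. The 8 genes of all leukocytes summed to 85.4 to 111.5 CPM in WT and 88.7 to 190.4 CPM in IL-21isoTg, mostly from Lcp1, and Ptprc itself was at 6.04 ± 3.65 and 6.26 ± 2.70 CPM (SD, n = 3 each, edgeR adjusted p = 0.993). T cell genes summed to 6.68 to 12.8 CPM in WT and 11.2 to 12.1 CPM in IL-21isoTg, and B cell genes to 2.50 to 8.89 and 4.99 to 6.25 CPM. Dendritic cell genes summed to 5.49 to 10.2 and 6.89 to 7.82 CPM, mostly from Zbtb46, and 6 of the 7 averaged under 1 CPM. Zbtb46 averaged 6.17 CPM, and which cells supplied it was not tested. Neutrophil genes summed to 0.0480 to 2.07 and 0.558 to 1.03 CPM, and mast cell genes to 0 to 0.361 and 0 to 0.280 CPM. Retnlg of neutrophils and Ms4a2 of mast cells were at 0 in all 6 libraries. The neutrophil genes, of which 1 of 7 passed the filter, thus summed to less CPM than Lyz2 alone in each mouse. Per kb, the neutrophil gene S100a8 was above Lyz2 in IL-21isoTg 3 only, at 1.92 against 1.63 CPM per kb.

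Some lists had higher sums in IL-21isoTg, where C1qa and C1qc also stood higher. The 6 fibroblast genes summed to 1929 to 3416 CPM in WT and 4275 to 4936 CPM in IL-21isoTg, without overlap, as for the milk protein genes above. Most of this sum came from the collagen genes Col1a1, Col1a2 and Col3a1. Pdgfra and Dcn overlapped between the genotypes, and Dcn went the other way, with means of 738 CPM in WT and 612 CPM in IL-21isoTg. The 6 endothelial genes summed to 56.9 to 148.9 and 95.6 to 246.5 CPM, and the 5 adipocyte genes to 0.902 to 2.98 and 1.40 to 36.5 CPM. The 8 epithelial genes summed to 6261 to 7919 and 5691 to 9047 CPM, and the 15 salivary gland genes to 53882 to 230563 and 42160 to 608105 CPM. In edgeR's test 0 genes of these lists were called, and the part of these cells in the C1q levels was not tested.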

How the data were processed

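The authors deposited whole-number counts of reads per gene for each library, without normalization. The submitters' processing notes name FastQC 0.11.7, Trimmomatic 0.38, HISAT2 2.1.0, SAMtools 1.9, featureCounts 1.6.3, DESeq2 1.24.0 and the build mm10, and the annotation and counting settings are not given in the sources used here. Deposited size-factor-scaled counts and the authors' comparison (fold changes and p-values) were not used.

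Counts were filtered (filterByExpr, minimum count 10, minimum total 15), TMM-normalized and compared by genotype with edgeR 4.0.16 (quasi-likelihood, robust dispersions) in R 4.3.3. P-values were adjusted by Benjamini-Hochberg over all genes tested, with a threshold of 0.05. Each library is 1 mouse. Single levels were compared by exact permutation tests that count both sides, with a smallest p of 0.1. Intervals of the fold changes came from the edgeR fit, which includes variation between mice. The Poisson interval and the floors cover counting error only. The fit was tested on simulated data whose results are not quoted. DESeq2 1.42.0 and limma 3.58.1 served as alternatives. Positions, lengths and transcript sequences came from GENCODE M21 (GRCm38). The deposited position was the same for 30993 of 31286 shared identifiers and for all 10 markers. The transcript used for lengths was chosen after an exon union was seen to lengthen Ptprc.

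The markers and gene lists were chosen with earlier results of these data known. Named genes were the markers, Il21, Ptprc, Lyz1, from each list up to 4 of the most abundant, called genes and defining markers at 0, and the 5 genes most like summed C1q. For several lists only the sum is given, and some genes that the rule takes are not reported here. Hmgxb3, Il34, Spi1, C1ra, C1s1 and the genes set beside Adgre1 were named after their values were seen, where outside the rule.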

Additional observations from a re-analysis of the deposited data

How the results depend on the processing

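None of the markers was called under any of the 16 alternatives, with adjusted p from 0.549 upward. Over all genes, the calls rose from 0 to 77 with DESeq2 (67 higher, 10 lower in IL-21isoTg), to 65 with edgeR's likelihood ratio test (52 and 13) and to 14 without the filter on low counts, and ranged from 0 to 6 when each mouse was left out, with 6 without WT 3. The cause was not tested. The count of markers without overlap ranged from 2 to 5 when each mouse was left out, where 17.9 to 27.6% of all genes tested had none, against 5.54 and 6.54% (higher and lower) with all mice. The highest counts include Fcgr1 or Adgre1, which were not among the genes tested. The small fold changes changed sign: Cd68 to 0.042 with limma-voom and 0.061 with the replicate block, and with each mouse left out Cd68 ranged from -0.30 to 0.48, Csf1r from -0.28 to 0.15 and Lyz2 from -0.65 to 0.034. C1qa, C1qb, C1qc and Mrc1 kept their direction in all alternatives that tested them. With a minimum of 10 counts in every library only Csf1r, Cd68 and Lyz2 could be tested. The log2 ratio of the summed CPM stayed between -0.09 and 0.32. Same-numbered mice did not deviate together (correlations -0.22, 0.07 and -0.06), and the replicate block called 0 markers and 0 genes. Depth limits Adgre1, Cx3cr1 and Fcgr1 most, where all libraries but 1 (Adgre1 in IL-21isoTg 3) held at most 7 counts each.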
